A study of Mus musculus with 9 samples.

Results

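Immediate early response genes were described in the mouse coronal suture, a seam of fibrous tissue that separates the frontal bone from the parietal bone. The set holds 34 genes named as members, all of which were found by symbol among the 43644 genes of the deposited table, and all 34 passed the filter on low values. They fall into AP-1 and small Maf subunits (Fos, Fosb, Fosl1, Fosl2, Jun, Junb, Jund, Atf3, Maff), other transcription factors (Egr1, Egr2, Egr3, Egr4, Nr4a1, Nr4a2, Nr4a3, Klf4, Klf6, Klf10, Myc, Csrnp1), and feedback, RNA decay and stress genes (Dusp1, Dusp2, Zfp36, Btg1, Btg2, Socs3, Sik1, Ier2, Ier3, Ier5, Gadd45b, Gadd45g, Rhob).

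RNA of 9 libraries from C57BL/6 mice aged 7 months was sequenced, with 3 libraries in each of 3 groups. REG were Twist1+/- mice that had suture regeneration surgery at 1 month of age, MUT were Twist1+/- mice without surgery, and WT were wild-type mice without surgery. Twist1 codes for a transcription factor of craniofacial mesenchyme, and REG and MUT thus share the heterozygous allele. There was no operated wild-type group. Since no label ties a library to its own animal, the p-values cover only how far these libraries spread, which may be technical. The series text also speaks of 1 week after induction, which the labels do not explain.

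Immediate early genes are transcribed within minutes of a stimulus, without new protein synthesis. Growth factors, mechanical load, cytokines and stress reach their promoters through MAP kinases, serum response factor with its ternary complex partners, and CREB. Jun and Fos proteins pair to form AP-1, which in bone controls osteoblast and osteoclast genes, while Egr and Nr4a proteins bind DNA by zinc fingers. Dusp, Zfp36, Socs and Btg proteins close the response by removing phosphate from kinases, by decay of short-lived RNAs or by blocking cytokine receptors. The same genes also respond to tissue handling, for which the labels give no times.

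The libraries differed in ways that touch every value below. Estimated reads came to 39377876, 30272185 and 18276494 in REG, 10894209, 2945636 and 7860273 in MUT, and 16356391, 20019712 and 19886755 in WT. A background of reads, judged from the density over 1597 olfactory and vomeronasal receptor genes, made up 0.493% to 0.816% of the reads in REG, 22.5%, 7.21% and 20.5% in MUT, and 0.592% to 0.857% in WT. Twist1 itself had deposited values of 3.76, 9.19 and 12.2 in REG, 0.987, 8.08 and 0.548 in MUT, and 16.2, 23.3 and 23.1 in WT. All REG and MUT libraries lay below all WT libraries, and MUT replicate 2 lay inside the REG range. Summed over 10 markers of osteogenic suture tissue, such as Col1a1, Runx2 and Bglap, the level was 42062 to 83552 RPM (reads scaled to the library total) in REG, 8175 to 48908 in MUT and 63138 to 101090 in WT, with no marker at 0. Of these markers 9 were lower in MUT vs WT and 7 were higher in REG vs MUT, beside 14.6% and 11.8% of all genes tested. MUT replicate 2 held the highest MUT level. REG replicates 1 and 2 carry the same sample numbers in their library names as WT replicates 2 and 3. The number of REG replicate 3 lies above those of WT and MUT, with a gap between them. REG replicates 1 and 3 both have a 2 next to REG in their names. The library name of MUT replicate 2 lacks its group name, unlike those of the other libraries. The labels name no sequencing run, so whether REG replicates 1 and 2 came from another run cannot be told. In bulk tissue, fewer cells of a type and less RNA per cell also cannot be told apart.

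The promoters of 5 genes are shown first, because of how their calls held in at least 1 comparison with MUT. There they were called on the deposited scale, with quantile scaling, with total-read scaling and after background subtraction alike. Jun and Maff were so called in both comparisons with MUT. They are the 250 bases before the RefSeq transcription start (GRCm38.p6), written 5′ to 3′ on the strand of the gene. Jun is on chr4:95052223-95052472 (minus strand), Nr4a2 on chr2:57124004-57124253 (minus strand), Dusp1 on chr17:26508473-26508722 (minus strand), Dusp2 on chr2:127335909-127336158 (plus strand) and Maff, at the second of 3 listed starts, on chr15:79347270-79347519 (plus strand). Capitals mark matches on either strand to the CRE or ATF site TGACNTCA, to the CRE core TGACG, or to the EGR site GCGNGGGCG. A TGACGTCA match also counts as a core on both strands. The genes run, in GENCODE M21 on GRCm38, over chr4:95049034-95052222 (Jun), chr2:57106830-57124003 (Nr4a2), chr17:26505590-26562128 (Dusp1), chr2:127336159-127338376 (Dusp2) and chr15:79346621-79359076 (Maff).
Jun: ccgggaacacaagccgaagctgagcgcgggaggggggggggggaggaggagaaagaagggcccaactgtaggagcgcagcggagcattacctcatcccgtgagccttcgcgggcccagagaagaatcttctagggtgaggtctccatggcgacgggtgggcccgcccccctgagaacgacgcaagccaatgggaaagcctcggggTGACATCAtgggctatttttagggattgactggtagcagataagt
Nr4a2: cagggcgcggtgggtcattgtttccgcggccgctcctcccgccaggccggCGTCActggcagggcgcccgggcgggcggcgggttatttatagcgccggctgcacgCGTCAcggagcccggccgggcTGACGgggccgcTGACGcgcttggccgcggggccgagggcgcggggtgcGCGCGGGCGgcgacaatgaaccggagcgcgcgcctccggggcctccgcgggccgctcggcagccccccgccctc
Dusp1: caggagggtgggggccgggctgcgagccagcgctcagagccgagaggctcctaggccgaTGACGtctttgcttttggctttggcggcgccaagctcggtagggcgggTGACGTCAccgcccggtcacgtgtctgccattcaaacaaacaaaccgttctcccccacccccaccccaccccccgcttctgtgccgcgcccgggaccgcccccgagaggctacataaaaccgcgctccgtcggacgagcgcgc
Dusp2: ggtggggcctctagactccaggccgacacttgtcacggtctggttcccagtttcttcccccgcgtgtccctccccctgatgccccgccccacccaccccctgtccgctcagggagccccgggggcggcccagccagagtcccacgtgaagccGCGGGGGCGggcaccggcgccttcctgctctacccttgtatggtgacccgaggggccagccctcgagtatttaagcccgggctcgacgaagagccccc
Maff: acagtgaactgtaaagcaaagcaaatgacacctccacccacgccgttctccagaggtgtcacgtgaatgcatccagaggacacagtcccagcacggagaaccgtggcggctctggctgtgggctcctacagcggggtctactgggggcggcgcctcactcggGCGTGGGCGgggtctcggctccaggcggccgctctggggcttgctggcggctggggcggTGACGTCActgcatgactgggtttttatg
Jun and Dusp1 hold an 8-base CRE or ATF match, and so does Maff, at the start shown, beside an EGR match. The window of the first Maff start (chr15:79346371-79346620), which ends next to the gene start, holds none of these matches. That of the third Maff start holds a CRE or ATF match and a core but no EGR match. Nr4a2 holds 4 CRE cores and 1 EGR match, and Dusp2 holds an EGR match alone.

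Promoters of 27 of the 34 genes were matched by symbol. A CRE core was present in 15 of these 27 genes (55.6%), against 19.8% of 27025 genes with a listed promoter. The EGR site was found in 11 of 27 (40.7%) against 5.33%, the full CRE or ATF site in 5 of 27 (18.5%) against 8.55%, and the CArG box, to which serum response factor binds, in 2 of 27 (7.41%) against 1.62%. An AP-1 site (TGANTCA) was in 1 of 27 (3.7%) against 7.82%, and a TATA box (TATAAA) in 5 of 27 (18.5%) against 14.3%. Median GC content was 64.8% over the 36 promoters of these genes and 52.4% over all 32851, and its part in these shares was not tested. All motifs were searched on both strands, and a match describes letters and not binding.

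Levels between genes were compared as RPKM, the RPM of a gene per kb of its exons. In REG the highest were Ier2 at 28.3 ± 26.2, Junb at 26.7 ± 16.7 and Jun at 18.7 ± 5.83 (mean ± SD, n = 3). In MUT the order was headed by Maff at 21.8 ± 6.72, Jund at 16.1 ± 13.5 and Dusp2 at 16.1 ± 2.89, and in WT by Jun at 33.2 ± 12.9, Jund at 23.8 ± 0.242 and Gadd45g at 17.2 ± 10.52. These neighbours did not differ beyond their spread. The lowest means were Egr2 at 1.26 ± 0.747 in REG, Fosl1 at 0.868 ± 0.804 in MUT and Fosl1 at 0.774 ± 0.327 in WT. Added over the 34 genes, the level was 927, 1098 and 753 RPM in REG, 771, 492 and 938 in MUT, and 661, 1090 and 943 in WT. These sums overlap between all groups, so the share of reads on the set as a whole did not separate them.

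**Figure D1:**
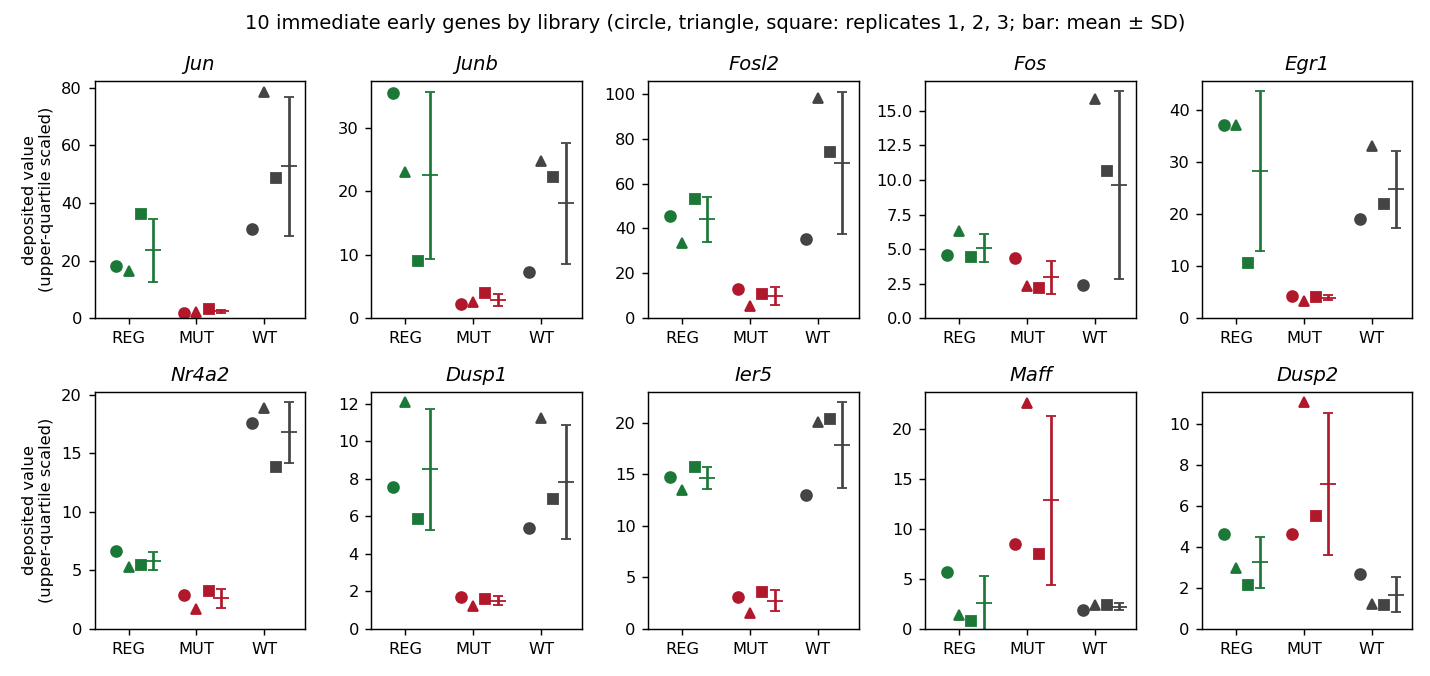
Deposited values (vertical axis, upper-quartile scaled, starting at 0) of 10 immediate early genes in REG, MUT and WT (horizontal axis). Circle, triangle and square stand for replicates 1, 2 and 3 and the bar for the mean ± SD (cut at 0 for Maff in REG). Jun, Junb, Fosl2, Egr1, Nr4a2, Dusp1 and Ier5 were lower in all 3 MUT libraries than in any WT library, whereas Maff and Dusp2 were higher.

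MUT against WT sets the unoperated Twist1+/- suture beside the wild-type suture. On the deposited scale, 16 of the 34 genes were lower in MUT and 2 were higher, at an adjusted p under 0.05 in limma over 29107 genes. Over all genes tested, 14.6% were called lower and 20.5% higher. The median log2 change was -1.49 over the 34 genes and 0.18 over all genes, and 28 of 34 changes were below 0, as were 45.7% of all. All 3 MUT libraries lay below all 3 WT libraries for 20 genes and above them for 2, where the shares over all genes were 25.9% and 32.6%. Among the better expressed genes that pass a 10 times stricter filter, 34.8% of 11449 genes were called lower, and 7.95% higher, and of the 30 members left 15 were lower and 2 higher. There the median was -1.63 for the members and -0.99 for all genes.

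How many genes were called depended on the scaling. With total-read scaling, which moves the median change of all genes to 1.11, 3 of the 34 were lower (Jun, Nr4a2, Ier5; 2.89% of all genes) and 2 higher (Dusp2, Maff; 38.7%). After background subtraction 3 were lower (Jun, Dusp1, Nr4a2; 3.58% of all genes) and Dusp2 and Maff were higher (13.9%). Trimmed-mean scaling gave 17 lower and 1 higher, beside 19.9% and 12.4% of all genes, and quantile scaling 11 lower and 2 higher, beside 8.59% and 9.21%. The median over the 34 genes stayed below that of all genes under each of the 5 scalings, by 1.04 to 1.67 on the log2 scale. Jun and Nr4a2 were called lower and Dusp2 higher under all 5. On the deposited scale, leaving out WT replicate 2 or WT replicate 3 left 7 calls in either case (Fosl2, Jun, Egr1, Nr4a2, Ier5, Dusp1, Rhob), and leaving out any 1 MUT library left 12.

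Among the 9 AP-1 and small Maf genes 3 were lower in MUT vs WT and 1 was higher. Jun, the main partner in AP-1 dimers, had deposited values of 18.1, 16.4 and 36.1 in REG, 1.90, 2.10 and 3.07 in MUT, and 30.9, 78.5 and 48.7 in WT. MUT was far below both other groups without overlap. Its log2 change was -4.21 ± 0.45 (SE) in MUT vs WT (adjusted p = 0.00086, limma), or 18.5-fold lower, and the call held with each of 6 libraries left out. Across the 5 scalings the change ran from -4.56 to -3.07. Estimated reads on Jun in MUT were 116, 20 and 145, of which the background would account for 56.5%, 30.4% and 29.7%.

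Fosl2, which codes for the Fos family member Fra-2, had values of 45.7, 33.5 and 53.3 in REG, 13.0, 5.37 and 10.9 in MUT, and 35.2, 98.3 and 73.9 in WT. It was lower in MUT vs WT (-2.74 ± 0.48, adjusted p = 0.0036, limma), and the call ended under quantile scaling, total-read scaling and background subtraction. Junb, a Jun paralog that can restrain Jun activity, had 35.4, 22.96 and 9.04 in REG, 2.21, 2.48 and 3.97 in MUT, and 7.22, 24.7 and 22.3 in WT. On the deposited scale MUT was again below both groups (-2.36 ± 0.60 in MUT vs WT, adjusted p = 0.015, limma). In RPM, MUT replicate 3 (23.96) was above WT replicate 1 (15.6) and REG replicate 3 (20.2). MUT replicates 1 and 2 (12.4 and 8.09) stayed below both groups. Without MUT replicate 1, WT replicate 2 or WT replicate 3 the Junb call ended (adjusted p up to 0.0665). It held with trimmed-mean and quantile scaling. Total-read scaling (-1.21, adjusted p = 0.174, limma) and background subtraction (-1.32, adjusted p = 0.243, limma) ended it.

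Maff, a small Maf protein without a transactivation domain, was higher in MUT. Its deposited values were 5.70, 1.35 and 0.816 in REG, 8.48, 22.6 and 7.47 in MUT, and 1.85, 2.42 and 2.41 in WT. Each MUT library was above every REG and WT library, and the log2 change was 2.18 ± 0.62 in MUT vs WT (adjusted p = 0.023, limma). The call ended under trimmed-mean scaling (adjusted p = 0.065) and without MUT replicate 2 or any 1 of the WT libraries (adjusted p up to 0.0777), while the sign held throughout. Dusp2, a MAP kinase phosphatase of immune cells, had 4.61, 2.98 and 2.12 in REG, 4.62, 11.1 and 5.53 in MUT, and 2.66, 1.21 and 1.15 in WT. MUT lay above WT without overlap (1.85 ± 0.46, adjusted p = 0.014, limma), and only the call, not the sign, was lost without MUT replicate 2, WT replicate 2 or WT replicate 3 (adjusted p up to 0.0626).

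Summed markers of 3 other cell types were also higher in every MUT library than in any other library. The sums were not corrected for background, which was 22.5%, 7.21% and 20.5% of reads in MUT and 0.493% to 0.857% elsewhere. Its part in the marker sums was not tested. Summed over 10 B cell markers the level was 168 to 329 RPM in REG, 1904 to 6074 in MUT and 74.2 to 186 in WT, with 3 of 10 called higher in MUT vs WT, none lower and none at 0. Summed keratinocyte markers were 20.0 to 29.0 RPM in REG, 337 to 910 in MUT and 22.3 to 33.6 in WT. Of these 10 markers 4 were higher and 1 was lower in MUT vs WT, and Krt14 was at 0 in MUT replicate 2. Neuron and astrocyte markers were 34.1 to 84.8 RPM in REG, 262 to 436 in MUT and 31.6 to 46.6 in WT, with 5 of 10 higher and 1 lower in MUT vs WT and none at 0. MUT replicate 2 had the highest B cell and keratinocyte sums and the highest Maff and Dusp2 values. Macrophage markers summed to 1012 to 2401 RPM in REG, 510 to 693 in MUT and 345 to 592 in WT, with 5 of 10 lower and 0 higher in MUT vs WT and 6 higher in REG vs MUT. Neutrophil markers summed to 3081 to 10966 RPM in REG, 2272 to 4330 in MUT and 441 to 2275 in WT, with 0 of 10 called in MUT vs WT and 2 higher in REG vs MUT. Endothelial markers summed to 199.9 to 311 RPM in REG, 135 to 393 in MUT and 208 to 242 in WT, with 3 of 10 lower in MUT vs WT and 4 higher in REG vs MUT. On the deposited scale, osteogenic, macrophage and endothelial markers were thus called in the same directions as most called members. Over all genes tested, 14.6% were lower and 20.5% higher in MUT vs WT, and 11.8% higher and 24.8% lower in REG vs MUT. Under the 10 times stricter filter 34.8% were lower in MUT vs WT, so the 3 of 10 endothelial markers lie near that share. In RPM, however, the macrophage and endothelial sums of MUT and WT overlapped. The macrophage range lay higher in MUT than in WT, opposite to the calls. Skeletal muscle markers summed to 94.6 to 1426 RPM in REG, 118 to 221 in MUT and 12.4 to 130 in WT, with Tnnc2 at 0 in MUT replicate 2 and Pvalb at 0 in WT replicates 1 and 3. Of these 10 markers 1 was higher and 0 lower in MUT vs WT, and 6 were higher and 0 lower in REG vs MUT. Erythroid markers summed to 2284 to 4718 RPM in REG, 3397 to 3550 in MUT and 565 to 1721 in WT, with 0 of 9 called in either comparison. The part of any of these cells in the members' values was not tested.

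The remaining AP-1 genes did not pass in MUT vs WT. Fos, the founding Fos gene, had 4.58, 6.28 and 4.43 in REG, 4.35, 2.34 and 2.19 in MUT, and 2.41, 15.9 and 10.7 in WT (-1.31 ± 0.60 in MUT vs WT, adjusted p = 0.12, limma). WT replicate 1 was inside the MUT range. Jund, Fosb, Fosl1 and Atf3 had log2 changes of -2.08, 0.24, -0.72 and 0.26 with adjusted p from 0.16 to 0.83. Jund was between 0.143 and 17.99 in REG and between 2.47 and 8.58 in MUT, against 18.1 to 21.0 in WT. Of the 31-base words of Jund exons 50.1% are shared with Gm11175 on the other strand, and 54.5% of those of Fosl1 with Ccdc85b, so their reads may be split or joined with those genes.

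A share within the 9 AP-1 and small Maf genes does not depend on how libraries are scaled. Of the summed reads per kb, Jun took 14.4%, 18.98% and 33.02% in REG, 4.93%, 3.91% and 6.04% in MUT, and 31.9%, 35.03% and 29.8% in WT. Maff took 5.58%, 1.91% and 0.891% in REG, 27.2%, 54.1% and 18.1% in MUT, and 2.31%, 1.31% and 1.79% in WT. MUT did not overlap with either group for either gene, and each exact permutation test of MUT against another group gave p = 0.1 (two-sided), the smallest that 3 against 3 allow. The ratio of Jun to Maff per kb was 2.59, 9.96 and 37.1 in REG, 0.181, 0.0722 and 0.333 in MUT, and 13.8, 26.7 and 16.6 in WT. In MUT vs WT, Jun had the largest fall and Maff the largest rise of the members in these same libraries. Their shares and ratio are thus no separate evidence. After background subtraction the Jun share was 14.4%, 19.05% and 33.1% in REG, 2.85%, 3.01% and 5.02% in MUT, and 32.2%, 35.1% and 29.9% in WT.

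**Figure D2:**
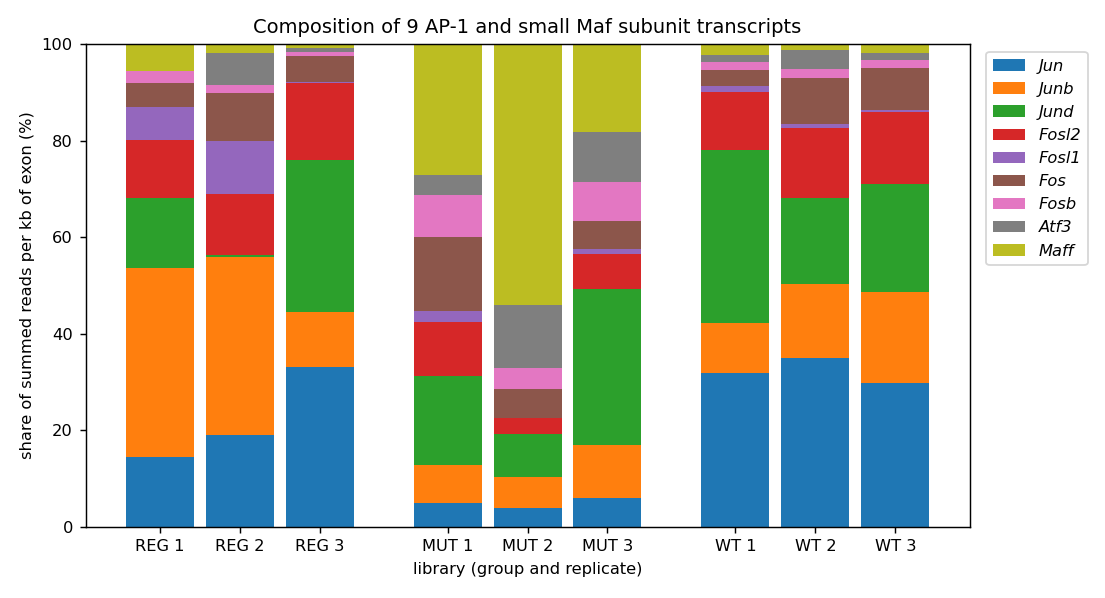
Share of each of 9 AP-1 and small Maf genes in their summed reads per kb of exon (vertical axis, %) in each library (horizontal axis; colours stand for genes). Jun takes 3.91% to 6.04% in MUT and 14.4% to 35.03% in the other libraries, and Maff takes 18.1% to 54.1% in MUT and at most 5.58% elsewhere.

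REG differed among its own libraries in this composition. Junb held 39.1% and 36.9% of it in REG replicates 1 and 2, against 11.4% in REG replicate 3 and 10.3% to 18.9% in WT. Jund held 0.292% in REG replicate 2, against 14.5% and 31.4% in REG replicates 1 and 3. Fosl1 held 6.89% and 10.9% in REG replicates 1 and 2 and 0.123% in REG replicate 3. REG replicates 1 and 2 are also the libraries whose sample numbers repeat those of WT libraries, and the part of a sequencing run was not tested.

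Of the 12 other transcription factors, 5 were lower in MUT vs WT and none was higher. Egr1, a zinc finger factor induced by growth factors and load, had values of 37.1, 36.96 and 10.6 in REG, 4.24, 3.39 and 4.14 in MUT, and 19.1, 33.01 and 22.0 in WT. MUT libraries were close together and below all others on the deposited scale (-2.51 ± 0.50 in MUT vs WT, adjusted p = 0.0057, limma). The call held with each of 6 libraries left out. It ended with total-read scaling (-1.34, adjusted p = 0.0995) and background subtraction (-1.59, adjusted p = 0.12). Egr3, its paralog, had 11.3, 14.1 and 7.54 in REG, 5.49, 5.68 and 4.40 in MUT, and 12.6, 12.2 and 10.9 in WT. The change of -1.15 ± 0.34 (adjusted p = 0.027, limma) was lost without any 1 library (adjusted p up to 0.151), and with total-read scaling it was 0.04.

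Nr4a2, an orphan nuclear receptor also called Nurr1, had values of 6.69, 5.29 and 5.49 in REG, 2.88, 1.70 and 3.24 in MUT, and 17.6, 18.9 and 13.9 in WT. On this scale the 3 groups did not overlap, with REG between the others. In RPM, REG (12.3 to 18.2) and MUT (5.43 to 19.5) overlapped, and with quantile scaling REG vs MUT was not called (adjusted p = 0.124, limma). The log2 change in MUT vs WT was -2.56 ± 0.34 (adjusted p = 0.0015, limma), which held with each of 6 libraries left out. Myc, a regulator of growth and proliferation, had 5.87, 13.6 and 9.81 in REG, 2.34, 5.19 and 1.85 in MUT, and 7.61, 16.8 and 12.2 in WT (-1.90 ± 0.48, adjusted p = 0.015, limma). Klf10, first known as a TGF-beta inducible gene of osteoblasts, had 5.80, 13.8 and 8.47 in REG, 4.30, 2.5999 and 1.59 in MUT, and 5.93, 13.4 and 11.1 in WT (-1.73 ± 0.48, adjusted p = 0.021, limma). In both genes MUT was lowest, WT replicate 1 was the lowest WT library, and the call was lost in 4 of 6 fits that left out a library (adjusted p up to 0.106).

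The other 7 factors gave no call in MUT vs WT. Egr2, Egr4, Nr4a1, Nr4a3, Klf4, Klf6 and Csrnp1 had log2 changes between -1.16 and 0.84, with adjusted p from 0.17 to 0.83. Nr4a1 and Klf4 were below WT in every MUT library, and the rest overlapped.

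Among feedback, decay and stress genes, 8 of 13 were lower in MUT vs WT and Dusp2 was higher. Ier5, which codes for a factor that modulates heat shock factor activity, had values of 14.8, 13.5 and 15.7 in REG, 3.11, 1.57 and 3.58 in MUT, and 13.0, 20.0 and 20.4 in WT. REG varied little and overlapped WT, while MUT was below both (-2.58 ± 0.38 in MUT vs WT, adjusted p = 0.0019, limma). Rhob, a small GTPase of endosomes, had 10.6, 14.1 and 13.4 in REG, 3.00, 0.793 and 3.50 in MUT, and 12.2, 11.9 and 13.9 in WT (-2.40 ± 0.46, adjusted p = 0.0050, limma). Dusp1, a phosphatase that switches off p38 and JNK, had 7.58, 12.1 and 5.86 in REG, 1.71, 1.24 and 1.57 in MUT, and 5.37, 11.2 and 6.91 in WT (-2.07 ± 0.40, adjusted p = 0.0050, limma). All 3 calls held with each of 6 libraries left out. Total-read scaling ended the calls of Dusp1 (-1.003, adjusted p = 0.126) and Rhob (-1.29, adjusted p = 0.132) and kept that of Ier5. Background subtraction ended those of Rhob (-1.58, adjusted p = 0.212) and Ier5 (-1.74, adjusted p = 0.078) and kept that of Dusp1 (-1.88, adjusted p = 0.037).

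Gadd45g, a stress sensor of MAP kinase signalling, had values of 1.91, 2.77 and 4.90 in REG, 2.23, 0.201 and 0.775 in MUT, and 2.75, 14.2 and 13.3 in WT (-2.84 ± 0.71, adjusted p = 0.014, limma). The gap rests on WT replicates 2 and 3, and without either of them the call ended (adjusted p up to 0.0638). Sik1, a salt-inducible kinase that holds back CREB coactivators, had 11.6, 18.1 and 17.3 in REG, 4.09, 1.03 and 9.74 in MUT, and 14.4, 21.5 and 13.6 in WT (-2.06 ± 0.62, adjusted p = 0.029, limma). Its 9 reads in MUT replicate 2 were at the expected background (105%), and without that library the change was -1.30 and not called. The Sik1 call held in only 1 of 6 fits that left out a library (adjusted p up to 0.106, limma). Quantile scaling, total-read scaling and background subtraction also ended it (adjusted p from 0.219 to 0.386, limma). Zfp36, or tristetraprolin, which drives decay of AU-rich RNAs, had 5.94, 13.3 and 8.31 in REG, 3.82, 3.97 and 2.57 in MUT, and 7.10, 13.3 and 12.4 in WT (-1.54 ± 0.41, adjusted p = 0.018, limma).

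Ier2, a small nuclear protein, had values of 9.502, 30.1 and 6.51 in REG, 3.00, 1.10 and 1.54 in MUT, and 6.07, 8.43 and 7.74 in WT (-1.87 ± 0.55 in MUT vs WT, adjusted p = 0.027, limma). REG replicate 2 was far above all other libraries. Ier3, a survival factor, had 2.14, 0.139 and 0.889 in REG, 0.445, 0.552 and 0.590 in MUT, and 1.62, 3.598 and 3.92 in WT (-1.85 ± 0.56, adjusted p = 0.029, limma). Both calls were lost in 5 of 6 fits that left out a library, and the Zfp36 call in 4 of 6 (adjusted p up to 0.102). Btg1, Btg2, Gadd45b and Socs3 did not pass, with log2 changes of -0.84, -0.27, -1.45 and -1.96 and adjusted p from 0.10 to 0.60. Socs3, an inhibitor of cytokine receptors, had 6.63, 37.6 and 6.74 in REG, 3.78, 1.20 and 3.63 in MUT, and 3.02, 20.8 and 20.8 in WT.

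**Figure D3:**
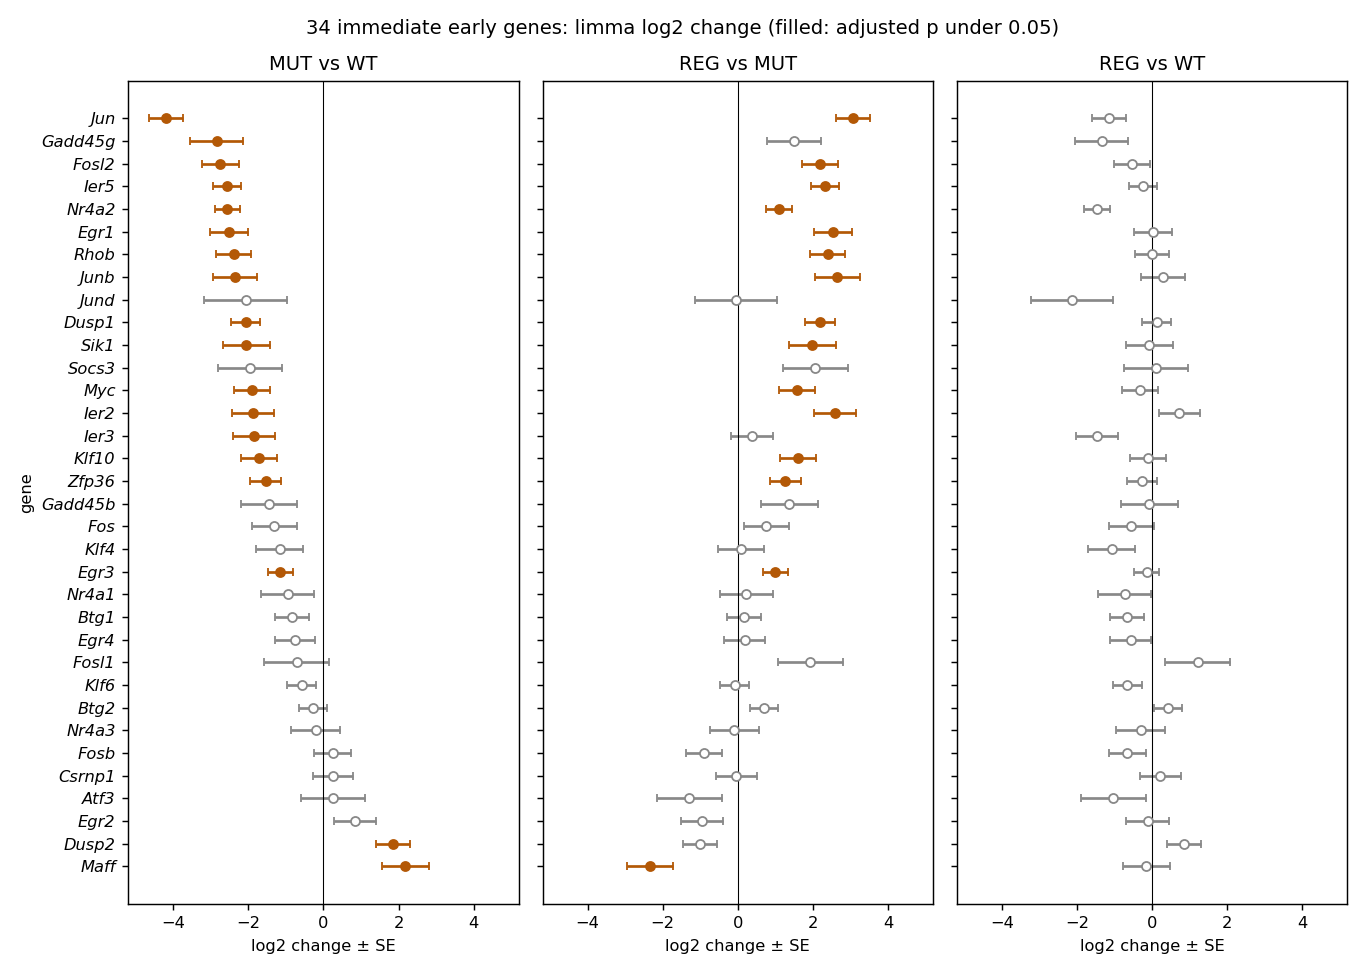
Limma log2 change ± SE (horizontal axes) of the 34 genes (vertical axis) in each of the 3 comparisons. Filled points passed an adjusted p under 0.05, which 18 genes did in MUT vs WT (35.1% of all genes tested), 15 in REG vs MUT (36.6%) and 0 in REG vs WT.

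REG against MUT sets the operated beside the unoperated Twist1+/- suture. It called 14 of 34 genes higher and 1 lower (limma, adjusted p under 0.05), where 11.8% of all genes were called higher and 24.8% lower. The median log2 change was 1.04 over the 34 genes and -0.36 over all genes, with 9 of 34 changes and 59.1% of all below 0. REG libraries lay above all MUT libraries for 16 genes and below them for 2, with 14% and 28.5% over all genes. Each of the 14 was also lower in MUT vs WT, but both comparisons use the same MUT libraries, so the match is not independent. Under the 10 times stricter filter 24.3% of genes were higher and 7.62% lower, as were 11 and 1 of 30 members.

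Jun had the largest log2 change in REG vs MUT (3.07 ± 0.45, adjusted p = 0.0020, limma), and it stayed called under all 5 scalings, from 2.28 to 3.75. Dusp1 (2.19 ± 0.40, adjusted p = 0.0040, limma) was the other gene called under all 5, from 1.46 to 2.86. Junb (2.65 ± 0.60), Ier2 (2.59 ± 0.55), Egr1 (2.54 ± 0.50), Rhob (2.39 ± 0.46), Ier5 (2.33 ± 0.38) and Fosl2 (2.20 ± 0.48) had adjusted p from 0.0026 to 0.0087 in limma. These 8 genes were called with each of 6 libraries left out.

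Sik1, Klf10, Myc, Zfp36, Nr4a2 and Egr3 were also higher in REG vs MUT, by 1.98, 1.61, 1.58, 1.27, 1.09 and 1.00 on the log2 scale (limma, adjusted p from 0.026 to 0.043). Each lost its call in 3 to 5 of 6 fits that left out a library, with adjusted p up to 0.214. Gadd45g and Ier3, lower in MUT vs WT, did not pass here (1.49 and 0.39, adjusted p = 0.12 and 0.62).

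Maff was lower in REG than in MUT (-2.34 ± 0.62, adjusted p = 0.017, limma), except that trimmed-mean scaling gave adjusted p = 0.078 and leaving out MUT replicate 2 gave adjusted p = 0.0567. Dusp2 lay below MUT in every REG library by a narrow margin, 4.61 in REG replicate 1 against 4.62 in MUT replicate 1, and was not called (-1.01 ± 0.46, adjusted p = 0.11). It was called lower with quantile scaling, total-read scaling and background subtraction (-1.98 to -1.41, adjusted p from 0.0098 to 0.049).

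Scaling again set the count in REG vs MUT. Trimmed-mean scaling gave 17 higher and 0 lower, beside 21.5% and 13.8% of all genes, and quantile scaling 7 and 2, beside 6.49% and 7.94%. Total-read scaling gave 5 and 4, beside 3.24% and 37.7%, and background subtraction 2 and 2, beside 3.49% and 12.8%. With total-read scaling the median change of all genes was -1.04, and the median of the 34 genes stayed above that of all genes under each scaling, by 0.81 to 1.52. Fosb and Klf6 were called lower with total-read scaling, and Btg2, Gadd45g and Socs3 higher with trimmed-mean scaling.

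**Figure D4:**
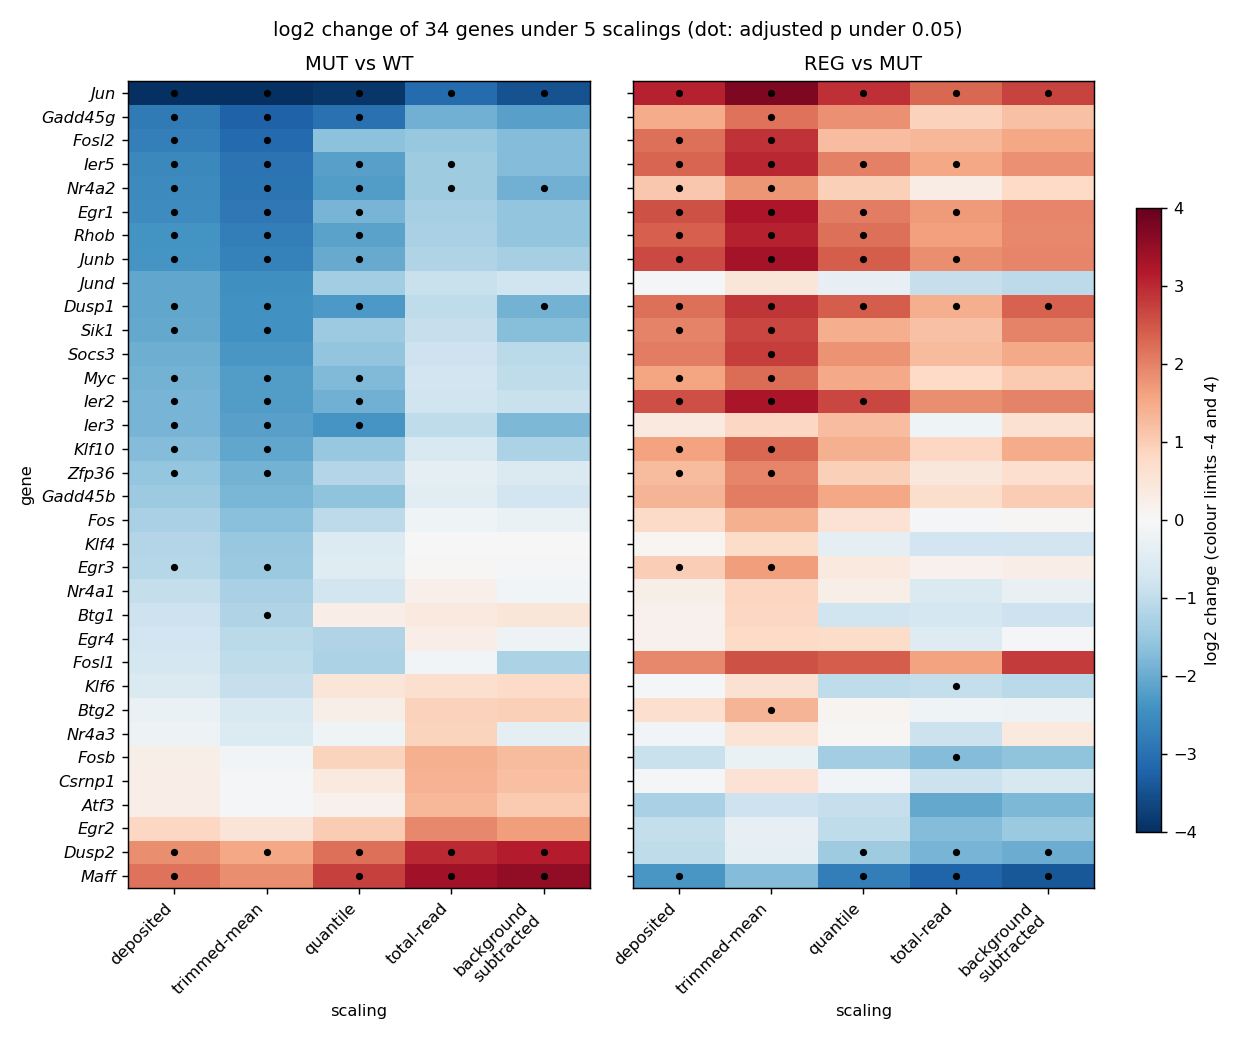
Log2 change (colour, limits -4 and 4) of the 34 genes (rows) under 5 scalings (columns) in the 2 comparisons with MUT, with a dot where the adjusted p was under 0.05. Jun keeps its dot in every column of both panels, and the count of dots in MUT vs WT is 18, 18, 13, 5 and 5 from left to right.

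Single REG libraries decided some values in REG vs MUT. Jund had 9.56, 0.143 and 17.99 in REG, and without REG replicate 2 it was called higher than in MUT (1.53, adjusted p = 0.0377) where all libraries together gave -0.05. Fosl1, which codes for Fra-1, had 5.52, 6.02 and 0.110 in REG, 0.589, 0.0998 and 0.363 in MUT, and 0.832, 1.16 and 0.426 in WT. In MUT its reads were at or below the expected background in all 3 libraries, and the 0 reads in MUT replicate 2 allow up to 1.02 RPM (3 counts of the total, counting error only). Without REG replicate 3, Fosl1 was called higher in REG vs MUT (3.16, adjusted p = 0.0038).

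REG vs WT asks whether operated Twist1+/- sutures differ from wild-type sutures. Limma called 0 of 29107 genes (0%), and 2755 genes (9.47%) had an unadjusted p under 0.05. Of the 34 genes 3 did, namely Nr4a2 (-1.47 ± 0.34), Ier3 (-1.47 ± 0.56) and Jun (-1.14 ± 0.45), with adjusted p of 0.50 to 0.51 in limma. The median log2 change was -0.26 over the 34 genes and -0.18 over all genes, and 25 of 34 were below 0, as were 62.7% of all genes. Nr4a2 and Jund had lower deposited values in every REG library than in any WT library, and no gene was above, with 12.1% and 4.03% over all genes. For Jund the margin was narrow, 17.99 in REG replicate 3 against 18.1 in WT replicate 1. In RPM, Jund in REG replicate 3 (40.3) was above every WT library (39.2 to 40.0).

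These data do not show that REG and WT were alike. The standard errors in REG vs WT ran from 0.34 for Egr3 to 1.09 for Jund. Without REG replicate 3, 1616 genes were called (5.61%), and among the 34 only Fosl1 was (2.44 ± 0.44, adjusted p = 0.0214). With REG replicate 3 as the only REG library, Fosl1 was at -1.25. The 3 REG libraries spread more than the other groups, with a median ratio of the highest to the lowest library of 3.16 over the 34 genes, against 2.34 in MUT and 2.23 in WT. In WT, replicate 2 was highest for 26 of the 34 genes and replicate 1 lowest for 25. No REG library had such a share, the highest being replicate 2 for 14 genes.

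Depth limits the low MUT values. The median of estimated reads per gene over the 34 was 714, 792 and 271 in REG, 226, 23.8 and 171 in MUT, and 212, 482 and 455 in WT. In MUT replicate 2, 9 genes had 10 reads or fewer, and Fosl1, Sik1, Gadd45b and Gadd45g were at or below the expected background. Background would make up a median of 32.6%, 28.0% and 26.1% of a gene's reads in the MUT libraries, and 0.665% to 1.54% in the others.

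**Figure D5:**
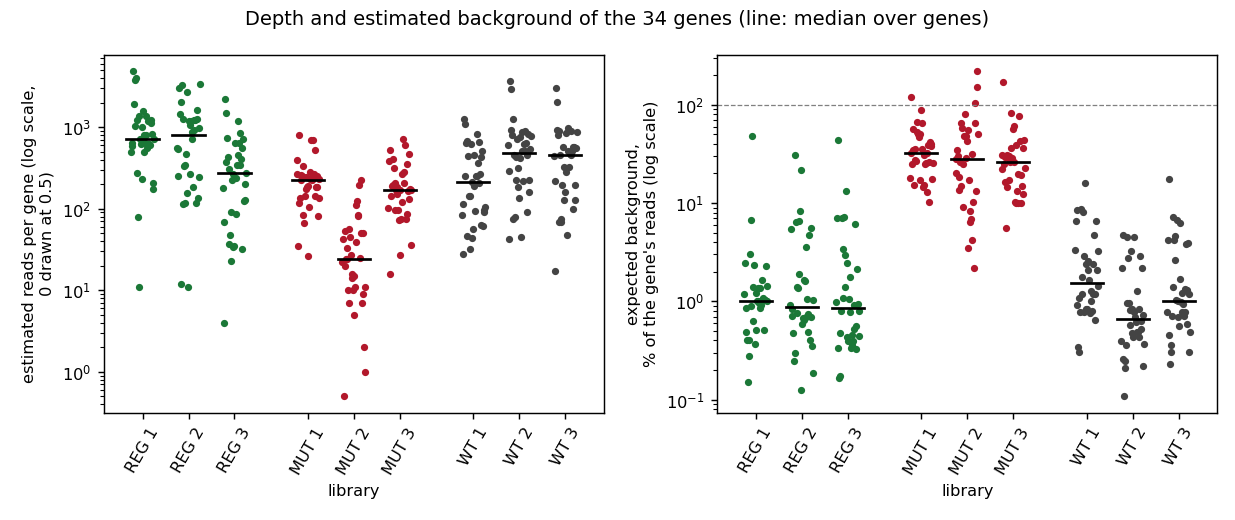
Estimated reads (left, log axis) and expected background as a percentage of a gene's reads (right, log axis; dashed line at 100%) of the 34 genes in each library, with the median as a line. Genes in MUT replicate 2 have a median of 23.8 reads, and the medians of the background share in MUT are 26.1% to 32.6%.

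Genes upstream of the immediate early response were examined as a further list. Of 27 genes of the MAP kinase, serum response factor and CREB pathways, 10 were lower in MUT vs WT and 0 higher, with a median of -1.01, beside 14.6% and 20.5% of all genes. Under the 10 times stricter filter 9 of 26 were lower, beside 34.8% of all genes, a share near the background. Srf, which codes for serum response factor, had 17.1, 16.6 and 12.6 in REG, 3.68, 1.95 and 1.59 in MUT, and 16.05, 15.6 and 20.1 in WT (-2.73 ± 0.37 in MUT vs WT, adjusted p = 0.0015, limma). Its partner Elk4 changed by -2.52 ± 0.40 (adjusted p = 0.0024, limma). In REG vs MUT 6 of 27 were higher and 0 lower, led by Srf (2.57 ± 0.37) and Elk4 (2.54 ± 0.40), beside 11.8% and 24.8% of all genes. Under the stricter filter 4 of 26 were higher, beside 24.3%. With total-read scaling 1 was lower (Srf) and 3 higher in MUT vs WT, beside 2.89% and 38.7% of all genes, and the list's median changed sign to 0.13.

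Of 43 family relatives of the 34 genes, 17 were lower and 2 higher in MUT vs WT on the deposited scale (median -1.02), and 12 were higher and 3 lower in REG vs MUT (median 0.73). Over all genes 14.6% were lower and 20.5% higher in MUT vs WT, and 11.8% higher and 24.8% lower in REG vs MUT. Under the stricter filter 17 of 33 were lower in MUT vs WT, beside 34.8% of all genes, and 10 higher in REG vs MUT, beside 24.3%. Klf9, a Kruppel-like factor induced by glucocorticoids, had 26.5, 48.1 and 32.8 in REG, 4.14, 2.83 and 2.11 in MUT, and 37.7, 59.0 and 32.96 in WT (-3.68 ± 0.40 in MUT vs WT, adjusted p = 0.00087, and 3.41 ± 0.40 in REG vs MUT, adjusted p = 0.0011, limma). Zfp36l1, a paralog of Zfp36, changed by -3.34 ± 0.49 in MUT vs WT. Dusp6, a phosphatase of ERK, changed by 2.49 ± 0.44 in REG vs MUT. With total-read scaling 6 were lower and 4 higher in MUT vs WT, beside 2.89% and 38.7% of all genes, and the median was 0.07.

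Delayed response genes, which AP-1, Egr and cytokines are known to switch on, included 12 lower and 0 higher of 26 tested in MUT vs WT (median -1.95) and 13 higher and 0 lower in REG vs MUT (median 1.84), where 14.6% of all genes were lower in MUT vs WT and 11.8% higher in REG vs MUT. Under the stricter filter 12 of 20 were lower in MUT vs WT and 13 higher in REG vs MUT, beside 34.8% and 24.3%. Cebpb, a leucine zipper factor, had 28.0, 21.2 and 28.2 in REG, 2.88, 2.54 and 4.30 in MUT, and 26.7, 33.7 and 30.6 in WT (-3.11 ± 0.33 in MUT vs WT, adjusted p = 0.00086, and 2.88 ± 0.33 in REG vs MUT, adjusted p = 0.0011, limma). Ccn2, the connective tissue growth factor, changed by -3.74 ± 0.45 in MUT vs WT. With total-read scaling 8 were lower and 1 higher in MUT vs WT, beside 2.89% and 38.7%, and the median was -0.47.

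Of 14 heat shock and dissociation stress genes, 7 were lower and 0 higher in MUT vs WT (median -1.46), and 8 were higher and 0 lower in REG vs MUT (median 1.64), again beside 14.6% of all genes lower and 11.8% higher. Under the stricter filter 7 of 12 were lower in MUT vs WT and 7 higher in REG vs MUT, beside 34.8% and 24.3%. Hspa5, the chaperone BiP of the endoplasmic reticulum, had 132, 165 and 129 in REG, 20.2, 21.4 and 17.9 in MUT, and 100.5, 110.3 and 123 in WT (-2.47 ± 0.31 in MUT vs WT, adjusted p = 0.0012, limma). Bag3, a co-chaperone, changed by -2.94 ± 0.46 in MUT vs WT (adjusted p = 0.0024, limma). With total-read scaling 2 were lower in MUT vs WT, beside 2.89%, and 3 were higher in REG vs MUT, beside 3.24%. The part of tissue handling in the levels of the immediate early genes was not tested.

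None of these 4 lists had a called gene in REG vs WT. The smallest p in any of them was that of Klf2, a Kruppel-like factor induced in endothelium by blood flow, with 12.7, 16.8 and 20.6 in REG, 16.1, 18.5 and 11.9 in MUT, and 109.9, 62.9 and 58.0 in WT. REG and MUT overlapped and both lay far below WT, yet the change of -2.14 ± 0.38 in REG vs WT had an adjusted p of 0.47 in limma. Without REG replicate 3, Klf2 was among 3 family relatives called lower, with Sik3 and Atf5, and Dusp5 was called higher. In that fit 1616 of 28808 genes (5.61%) were called in either direction. The other genes of smallest p in REG vs WT were Atf5 (-1.24), Braf (-1.43), Elk3 (-1.02), Dnajb1 (1.07), Hspb1 (-1.0002), Sphk1 (-0.91) and Irf1 (1.18), with adjusted p from 0.50 to 0.57 in limma.

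The authors' deposited table, whose test settings are not given, had 16 of the 34 genes at an FDR under 0.05 for WT and MUT, of which 14 had a positive log2 ratio of WT over MUT and 2 a negative one. Over all 43644 genes of the authors' deposited table that share was 25.5%. For REG and MUT the authors' deposited table had 13, with 12 positive log2 ratios of REG over MUT and 1 negative, where the share over all genes was 41.5%. For WT and REG the authors' deposited table had 0.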

How the data were processed

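RNA of the coronal suture was read as single-end sequences. The submitters' processing notes list STAR 2.6.1d, Partek and the mm10 build. How reads were counted, by which annotation and strand, and how they were normalized was not stated. The deposited matrix is taken from its values to be a signal, namely estimated reads plus 1, scaled to 1 common 75th percentile in all libraries. It names no genes. Its columns follow the order of the deposited gene table, because sum, maximum, geometric and arithmetic mean matched for 43644 of 43644 genes (relative tolerance 1e-06, unique for 43483). That table also holds the authors' p-values, FDR values and log2 ratios. Estimated reads were recovered by dividing each value by the lowest of its library and subtracting 1.

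Limma 3.58.1 (R 4.3.3) fitted log2(value + 0.367) of all 9 libraries in 1 model. The filter kept 29107 genes that reached 0.367 in 3 libraries. Fold changes are on this scale and understate low genes. Tests are two-sided, with Benjamini-Hochberg adjustment over all genes tested, and a call is an adjusted p under 0.05. Positions and exon lengths are from GENCODE M21 (GRCm38), promoters from RefSeq (GRCm38.p6). Alternatives were trimmed-mean, quantile and total-read scaling (RPM, pseudocount 1), background subtraction, other filters and pseudocounts, only the 2 groups compared, a replicate block and left-out libraries. Background was the read density of 1597 receptor genes times exon length. The fit was tested on simulated data. The members and all gene lists were chosen with earlier results of these data known. Members called in any comparison, and Fos, are given in every library, and from each further list the 2 genes of smallest p per comparison, except 1 that is not reported here. Jund, Fosl1 and Socs3 were added after their values were seen. Software was Python 3.11.15 with numpy 2.4.6 and pandas 2.3.3; matplotlib 3.10.9 drew the figures.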

Additional observations from a re-analysis of the deposited data

How the results depend on the processing

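Of 575 values of called genes under the alternatives, 397 kept their direction and call, 177 kept the direction only and 1 reversed: Egr3 in MUT vs WT, 0.041 with total-read scaling. Jund, not called in REG vs MUT, ran from -1.06 to 1.53 with a library left out, called higher without REG replicate 2 (1.53) and with REG replicate 3 alone (1.97). Called among the 34 in MUT vs WT were 5 genes with total-read scaling, 5 after background subtraction, 7 with MUT replicate 2 alone, and 7 to 16 with a library left out. In REG vs MUT they were 9 with quantile scaling, 9 with total-read scaling, 4 after background subtraction, 8 with only the 2 groups compared, 5 with MUT replicate 2 alone, and 10 to 13 with a library left out. In REG vs WT 0 to 1 were, the 1 without REG replicate 3. Over all genes, MUT vs WT called 10225, but 5181 with quantile scaling, 4211 after background subtraction, 4895 under the stricter filter, 1777 with MUT replicate 2 alone and 3756 to 6611 with a library left out. REG vs MUT called 10653, but 4200, 3920, 3652 and 1494 in the same order, 6051 with only the 2 groups and 3646 to 11674 with a library left out; REG vs WT called 0 to 1616. The share called higher in MUT vs WT was 5964 of 10225, against 3449 of 9004 with trimmed-mean scaling and 11734 of 12610 with total-read scaling; in REG vs MUT it was 3432 of 10653, against 6001 of 9841 and 982 of 12437. Where 1 library stood alone for its group, it was assumed to vary like the other groups. The causes were not tested, but fewer libraries or genes enter the left-out, 2-group and stricter fits.

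The same replicate numbers did not pair the libraries (correlations of deviations from the group means from -0.196 to 0.101). With the replicate number as a block, 18 of the 34 were called in MUT vs WT, 13 in REG vs MUT and 0 in REG vs WT, and 8766, 9373 and 0 of all genes.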
